A study of Rattus norvegicus with 20 samples.

Results

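Glucuronidation, sulfation and the supply of sulfate in rat liver were described through 7 genes. These were the glucuronosyltransferases Ugt2b1 and Ugt2a1, the UDP-glucose dehydrogenase Ugdh, the sulfotransferases Sult1a1 and Sult1b1, the PAPS synthase Papss2 and the sulfate transporter Slc13a4. The members were the probe sets annotated to these gene symbols, 8 of the 31099 probe sets on the array and 7 of the 14217 genes measured. Papss2 had 2 probe sets, and each of the other genes had 1.

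Liver RNA was measured on 1 array per rat in 20 male Harlan Sprague-Dawley rats, whose age is not stated in the labels. The control group (n = 5) received corn oil by oral gavage, and the treated groups (n = 3 each) received tricresyl phosphate (TCP), an organophosphate triester used as a plasticizer and flame retardant, in the same vehicle. The labelled doses were 62.3, 124.5, 248.6, 497.3 and 994.6 mg/kg, each given 4 times on consecutive days. Small cubes of the left lobe gave the RNA, so each value is an average over all cells of the tissue, and fewer cells of a type and less RNA per cell cannot be told apart.

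Conjugation makes fat-soluble compounds easier to excrete. Glucuronosyltransferases of the endoplasmic reticulum attach glucuronic acid from UDP-glucuronate, which UDP-glucose dehydrogenase makes. Sulfotransferases of the cytosol attach sulfate from the activated donor PAPS, which PAPS synthases make from ATP and inorganic sulfate, and the sulfate is taken up by membrane transporters or made from cysteine. Phenols and steroids are substrates of both routes.

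Promoter sequences are shown for 3 members that differed in their response, namely Ugt2b1, whose transcript was higher after treatment, Slc13a4, whose transcript was lower, and Ugdh, which did not pass the test. RefSeq (build GRCr8) held a promoter for 6 of the 7 members, from 250 bases before the gene's start to 50 bases after it. Capitals mark matches to 6 motifs searched on both strands: the nuclear receptor half-sites AGGTCA and AGTTCA, the aryl hydrocarbon receptor core GCGTG, the antioxidant response core TGACNNNGC, the HNF1 half-site GTTAAT and the TATA box TATAAA. The windows lie at chr14:21378632-21378931 on the plus strand for Ugt2b1, at chr14:43202268-43202567 on the plus strand for Ugdh and at chr4:64955937-64956236 on the minus strand for Slc13a4.
Ugt2b1: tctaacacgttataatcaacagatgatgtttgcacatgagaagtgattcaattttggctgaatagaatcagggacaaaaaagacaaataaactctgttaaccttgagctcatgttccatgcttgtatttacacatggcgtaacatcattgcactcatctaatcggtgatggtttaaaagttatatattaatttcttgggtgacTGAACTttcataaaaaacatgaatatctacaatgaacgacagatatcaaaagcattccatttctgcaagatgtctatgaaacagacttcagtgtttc
Ugdh: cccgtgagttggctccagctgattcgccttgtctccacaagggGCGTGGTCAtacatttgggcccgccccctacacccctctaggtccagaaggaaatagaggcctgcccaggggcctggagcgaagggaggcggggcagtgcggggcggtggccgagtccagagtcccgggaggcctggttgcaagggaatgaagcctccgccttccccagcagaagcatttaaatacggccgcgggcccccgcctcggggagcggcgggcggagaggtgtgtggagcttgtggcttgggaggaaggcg
Slc13a4: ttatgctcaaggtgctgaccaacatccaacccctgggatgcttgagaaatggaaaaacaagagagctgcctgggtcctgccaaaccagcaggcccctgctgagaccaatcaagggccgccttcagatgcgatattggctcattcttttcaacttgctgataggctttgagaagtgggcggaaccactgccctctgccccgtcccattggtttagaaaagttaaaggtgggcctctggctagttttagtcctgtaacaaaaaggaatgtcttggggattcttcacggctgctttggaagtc

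The Ugt2b1 window held 1 match, the half-site AGTTCA read on the minus strand at position -47 from the start. That motif was found in 14.5% of 33469 rat promoters of 300 bases. Among the members not shown, Sult1b1, which was not called at any dose, also held it, on the plus strand at position -59. Papss2 held a match to the TATA box, and Sult1a1 held no match. The Ugdh window held the core GCGTG, present in 29.7% of all promoters, and the core TGACNNNGC on the minus strand, present in 12.1%, and both began at position -207 and overlapped. The letters of the 6 motifs were not found in the Slc13a4 window. A match describes the letters only, and binding was not measured.

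Values are log2 expression levels of the array. A change is a difference of group means on that scale, given with the standard error from limma, and a change of 1 is a doubling. A gene was called when its Benjamini-Hochberg adjusted p from limma over all 14217 genes was under 0.05. Levels of different genes were not compared, because they come from different probes, except in a filter at the median of the gene means.

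Ugt2b1 encodes a liver glucuronosyltransferase known to act on phenols and steroids. Its transcript was higher than in control at the 3 upper doses, 2.38-fold at 994.6 mg/kg. The control livers read 12.20, 12.32, 12.25, 12.72 and 12.89. The arrays read 13.41, 13.26 and 13.36 at 62.3 mg/kg and 13.37, 12.90 and 13.19 at 124.5 mg/kg. They read 13.60, 13.62 and 13.71 at 248.6 mg/kg, 13.47, 13.59 and 13.35 at 497.3 mg/kg, and 13.66, 13.67 and 13.86 at 994.6 mg/kg. All 15 treated arrays lay above the highest control array, as they did for 0.0703% of all genes.

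The change in Ugt2b1 was 1.17 ± 0.14 at 248.6 mg/kg (adjusted p = 0.000514), 0.99 ± 0.14 at 497.3 mg/kg (adjusted p = 0.00124) and 1.25 ± 0.14 at 994.6 mg/kg (adjusted p = 4.54e-05). At the lowest dose it was 0.87 ± 0.14 (adjusted p = 0.0691), and at 124.5 mg/kg it was 0.68 ± 0.14 (adjusted p = 0.457), so neither passed the test. Part of the control spread came from replicates 4 and 5, which read higher than the other 3 control arrays. Without control replicate 5 the change passed the test at 62.3 mg/kg (adjusted p = 0.0039) and at 124.5 mg/kg (adjusted p = 0.0368), and without control replicate 4 at 62.3 mg/kg (adjusted p = 0.0469). Leaving out a high control array raises the change by itself. Of the 8 arrays left out singly at each of these doses, the others gave no call.

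Steps between neighbouring doses of Ugt2b1 were -0.19 ± 0.15, 0.49 ± 0.15, -0.18 ± 0.15 and 0.26 ± 0.15 from the lowest pair to the highest, and none passed the test (adjusted p of 0.75 or above). The group means did not follow the dose order strictly, since 124.5 mg/kg lay below 62.3 mg/kg and 497.3 mg/kg below 248.6 mg/kg. The slope over the dose steps, counted from 0 for control to 5 for 994.6 mg/kg, was 0.23 ± 0.03 per step (adjusted p = 0.000535).

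Ugt2a1 encodes a relative of Ugt2b1 best known from the olfactory mucosa. It was called higher at 994.6 mg/kg, by 1.61-fold. Its mean over all arrays lay below the median of the gene means, so the filter on low means left it untested. The control arrays read 5.91, 6.41, 5.78, 6.09 and 5.89. The treated arrays read 6.52, 6.50 and 6.52 at 62.3 mg/kg, 6.76, 6.20 and 6.70 at 124.5 mg/kg and 6.61, 6.68 and 6.70 at 248.6 mg/kg. At the 2 upper doses they read 6.48, 6.43 and 6.50, and then 6.69, 6.55 and 6.88. Of the 15 treated arrays, 14 lay above every control array, and the exception was replicate 2 of 124.5 mg/kg.

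The change in Ugt2a1 was 0.69 ± 0.13 at 994.6 mg/kg (adjusted p = 0.00471). It was 0.50 ± 0.13, 0.54 ± 0.13, 0.65 ± 0.13 and 0.46 ± 0.13 at the 4 lower doses, where the adjusted p was 0.0989 or above. The slope was 0.11 ± 0.03 per dose step (adjusted p = 0.0133). Control replicate 2 was the highest control array, and without it the changes at 248.6 and 497.3 mg/kg also passed the test (adjusted p = 0.0111 and 0.0411). Leaving out the highest control array raises the change by itself. It was the 1 of 8 single arrays left out that gave a call at each of these doses. The slope did not pass without the 3 arrays of 994.6 mg/kg, where it was 0.13 ± 0.04 (adjusted p = 0.0952), without control replicates 4 and 5, where it was 0.096 ± 0.030 (adjusted p = 0.0768), or with the GAPDH covariate described with the RNA quality values, where it was 0.088 ± 0.030 (adjusted p = 0.0839).

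Ugdh encodes the enzyme that makes UDP-glucuronate from UDP-glucose, the donor that every glucuronosyltransferase needs. Its transcript was not called at any dose. The control arrays read 11.83, 11.73, 11.95, 11.65 and 11.93. Those of 248.6 mg/kg read 12.19, 11.91 and 12.19, those of 497.3 mg/kg 12.07, 12.08 and 11.87, and those of 994.6 mg/kg 12.16, 11.99 and 11.83. At 62.3 and 124.5 mg/kg the arrays lay between 11.77 and 12.15.

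Treated and control arrays of Ugdh overlapped at every dose, and 8 of the 15 treated arrays lay above the highest control. The change was 0.13, 0.10, 0.28, 0.19 and 0.18 from the lowest dose to the highest, each ± 0.11. At 994.6 mg/kg the 95% interval ran from -0.05 to 0.40 (adjusted p = 0.417), which does not reach the change of Ugt2b1 there. The slope was 0.04 ± 0.02 per dose step (adjusted p = 0.222).

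**Figure D1:**
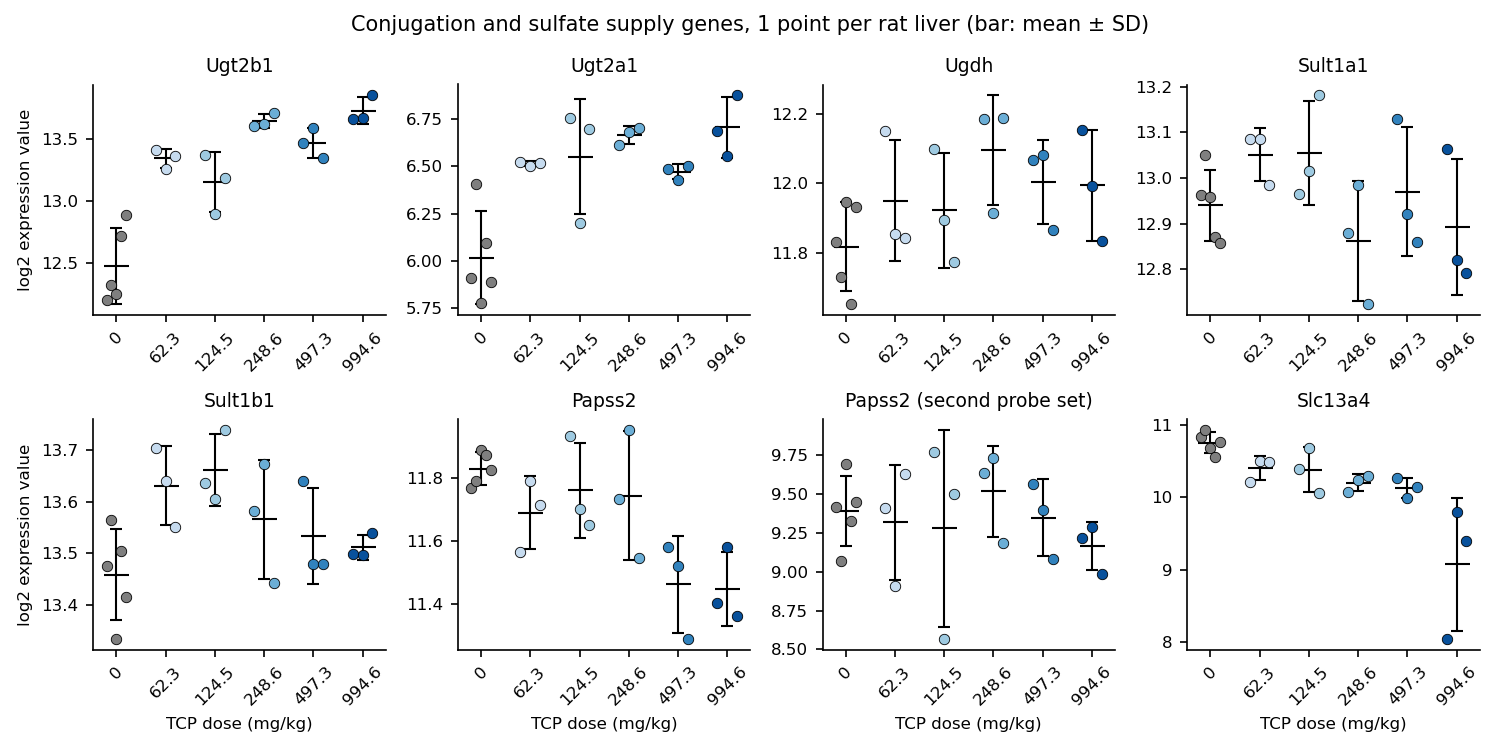
Log2 expression level (vertical axis) of the 7 genes in every liver, 1 panel per probe set with its own scale, against the 6 dose groups in mg/kg (horizontal axis), where points are arrays and bars show the group mean ± SD. All 15 treated arrays of Ugt2b1 sit above the 5 control arrays, and 1 array of 994.6 mg/kg sits at 8.04 for Slc13a4.

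Sult1a1 encodes the main phenol sulfotransferase of liver. It was not called at any dose. The control arrays lay between 12.86 and 13.05, and the 3 arrays of 994.6 mg/kg read 13.06, 12.82 and 12.79, on both sides of that range. The arrays of the other 4 doses lay between 12.72 and 13.18. Of the 15 treated arrays, 5 lay above and 3 below the control range. The changes were 0.11, 0.11, -0.08, 0.03 and -0.05 from the lowest dose to the highest, each ± 0.09, and the adjusted p was 0.836 or above. At 994.6 mg/kg the 95% interval ran from -0.23 to 0.14, so it excludes a change as large as that of either glucuronosyltransferase at this dose.

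Sult1b1 encodes a sulfotransferase of phenols and thyroid hormones. It was not called at any dose either. The control arrays lay between 13.33 and 13.56. At 124.5 mg/kg the arrays read 13.64, 13.61 and 13.74, above every control array, and at 994.6 mg/kg they read 13.50, 13.50 and 13.54, within the control range. Of the 15 treated arrays, 8 lay above the highest control array and 0 below the lowest. The change was 0.20 ± 0.07 at 124.5 mg/kg (adjusted p = 0.939) and 0.05 ± 0.07 at 994.6 mg/kg (adjusted p = 0.783), where the 95% interval ran from -0.10 to 0.21. The slopes of Sult1a1 and Sult1b1 did not pass the test (adjusted p = 0.671 and 0.916).

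Papss2 encodes a bifunctional enzyme that makes PAPS. It was called lower at 994.6 mg/kg by the probe set used for the gene, 1.30-fold, but this call was not stable. The control arrays read 11.77, 11.79, 11.89, 11.87 and 11.83. The arrays read 11.58, 11.52 and 11.29 at 497.3 mg/kg and 11.40, 11.58 and 11.36 at 994.6 mg/kg, all below the lowest control array. They read 11.56, 11.79 and 11.72 at 62.3 mg/kg, 11.93, 11.70 and 11.65 at 124.5 mg/kg, and 11.73, 11.95 and 11.55 at 248.6 mg/kg, and these overlapped with control.

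The change in Papss2 was -0.38 ± 0.10 at 994.6 mg/kg (adjusted p = 0.032), -0.37 ± 0.10 at 497.3 mg/kg (adjusted p = 0.104) and -0.07 ± 0.02 per dose step (adjusted p = 0.0123). The call at 994.6 mg/kg was lost in 10 of 16 alternative settings, over which the change lay between -0.45 and -0.30. Among these were leaving out replicate 1 or replicate 3 of that dose (adjusted p = 0.155 and 0.0907) or any one of control replicates 1, 3, 4 and 5 (adjusted p between 0.0505 and 0.0621). The second probe set of Papss2 read 9.22, 9.29 and 8.99 at 994.6 mg/kg against 9.07 to 9.69 in control. Its change was -0.22 ± 0.22 (adjusted p = 0.682 over 20826 probe sets), and with the mean of both probe sets the change was -0.30 (adjusted p = 0.258). The slope also lost its call with that mean, where it was -0.05 ± 0.02 per dose step (adjusted p = 0.258), and without the 3 arrays of 994.6 mg/kg, where it was -0.07 ± 0.02 (adjusted p = 0.162).

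Slc13a4 encodes a sodium-coupled sulfate transporter. Its transcript was 3.20-fold lower at 994.6 mg/kg. The control arrays read 10.84, 10.94, 10.68, 10.56 and 10.77. The arrays read 10.22, 10.51 and 10.50 at 62.3 mg/kg, 10.40, 10.68 and 10.07 at 124.5 mg/kg and 10.07, 10.24 and 10.30 at 248.6 mg/kg. They read 10.27, 9.99 and 10.15 at 497.3 mg/kg and 8.04, 9.80 and 9.39 at 994.6 mg/kg. Of the 15 treated arrays, 14 lay below every control array, the exception being replicate 2 of 124.5 mg/kg, and the 3 arrays of the top dose were the 3 lowest.

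The change in Slc13a4 was -1.68 ± 0.25 at 994.6 mg/kg (adjusted p = 0.000628). Without replicate 1 of that dose, the array at 8.04, it was -1.16 ± 0.15 (adjusted p = 0.000302). It was -0.35, -0.37, -0.55 and -0.62 at the 4 lower doses, each ± 0.25, with an adjusted p of 0.303 or above. In a fit on only the control and 497.3 mg/kg arrays, which leaves out the spread at 994.6 mg/kg, the change at 497.3 mg/kg was -0.62 ± 0.10 and passed the test (adjusted p = 0.0142). The difference between 994.6 and 497.3 mg/kg was -1.06 ± 0.28 (adjusted p = 0.283). With each of the 6 arrays of these doses left out in turn, it lay between -1.42 and -0.54. The smallest difference, -0.54, came without replicate 1 of 994.6 mg/kg and was not called. The call was gained in 1 of these fits, without replicate 2 of 994.6 mg/kg, at -1.42 (adjusted p = 0.0368). The slope was -0.26 ± 0.05 per dose step (adjusted p = 0.00201).

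Mean levels of red cell transcripts, like those of Slc13a4, were lower than in control in each treated group. Of 5 red cell markers, 4 were measured (Hbb and Hba-a3, globin chains; Alas2, the first enzyme of heme synthesis in erythroid cells; Ahsp, a globin chaperone), and all 4 were called lower at 994.6 mg/kg. The log2 of their summed level lay between 13.68 and 13.89 in control, 13.38 and 13.65 at 62.3 mg/kg, and 13.23 and 13.48 at 124.5 mg/kg. It lay between 12.91 and 13.18 at 248.6 mg/kg, between 12.93 and 13.34 at 497.3 mg/kg, and read 11.23, 12.90 and 12.64 at 994.6 mg/kg. Within control the order differed, since replicate 4 was the lowest in Slc13a4, at 10.56, and the highest in the sum, at 13.89. Over all arrays, the 3 lowest in Slc13a4 were the 3 lowest in this sum, and replicate 1 of 994.6 mg/kg was the lowest in both.

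Without that array, the changes of Hbb, Hba-a3 and Alas2 at 994.6 mg/kg were -1.001, -1.02 and -1.15 (adjusted p = 0.000256, 0.00196 and 0.000134), beside -1.16 for Slc13a4, and that of Ahsp was -0.49 (adjusted p = 0.086). The part of red cell content in the Slc13a4 result was not tested.

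By the mean absolute difference of the 5 changes against control, the 3 genes nearest to Slc13a4 among 13979 were Hbb at 0.102, Alas2 at 0.114 and Cdc25b, a cell cycle phosphatase, at 0.116. Hbb changed by -0.20, -0.43, -0.71, -0.63 and -1.54 from the lowest dose to the highest, beside -0.35, -0.37, -0.55, -0.62 and -1.68 for Slc13a4. The 3 genes nearest to Ugt2b1 were Tbx3, a T-box transcription factor, at 0.168, App, the amyloid precursor protein, at 0.207 and Mnd1, a meiotic recombination protein, at 0.212. Tbx3 changed by 0.57, 0.87, 1.18, 1.06 and 0.97. All of these changes share the 5 control arrays.

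**Figure D2:**
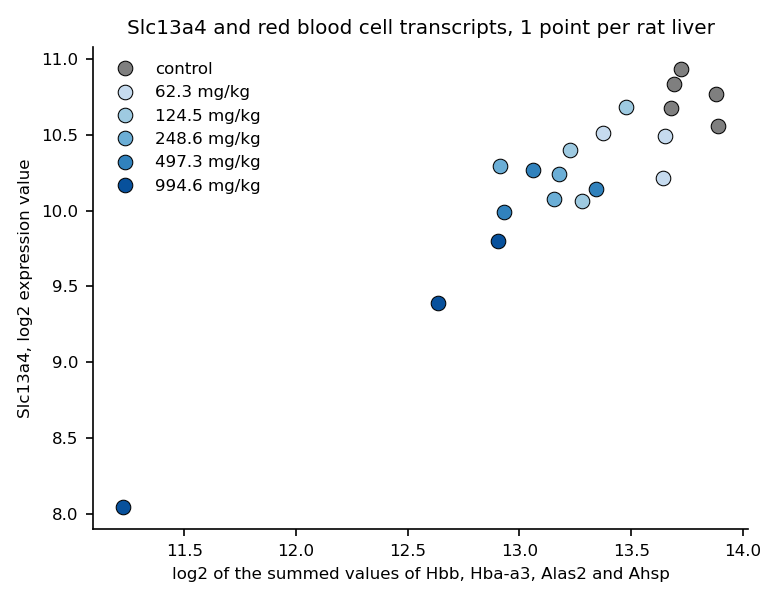
Log2 level of Slc13a4 (vertical axis) against the log2 summed level of 4 red cell markers (horizontal axis) in the 20 livers, with points shaded by dose group in mg/kg. Replicate 1 of 994.6 mg/kg sits apart at 8.04 and 11.23, and the other 2 arrays of that dose lie below all other arrays in Slc13a4.

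Counted together, the members called were 0 at 62.3 mg/kg and 0 at 124.5 mg/kg by limma, where 0% and 0.00703% of all genes were called. At an unadjusted p under 0.05, 3 members and 349 of all genes passed at 62.3 mg/kg, and 3 members and 717 of all genes at 124.5 mg/kg. At 248.6 mg/kg 1 member was called higher, Ugt2b1, beside 0.0492% of all genes. At 497.3 mg/kg Ugt2b1 was again the 1 member called higher, beside 0.513% of all genes. At 994.6 mg/kg 2 members were called higher and 2 lower, beside 2.5% and 1.96% of all genes. The slope was called upward for Ugt2b1 and Ugt2a1 and downward for Papss2 and Slc13a4, beside 3.9% and 2.57% of all genes. The calls of Ugt2a1 and Papss2 among these were lost in the settings given with each gene. The members were chosen with earlier results of these data known, so the shares of all genes are no test of the group.

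Members whose treated arrays all lay outside the control arrays were read against the share of all genes doing so in the same direction. At 62.3 mg/kg, Ugt2b1 and Ugt2a1 lay above (1.44% of all genes) and Slc13a4 below (1.32%). At 124.5 mg/kg, Ugt2b1 and Sult1b1 lay above (2.24%) and no member below (1.27%). At 248.6 mg/kg, Ugt2b1 and Ugt2a1 lay above (4.25%) and Slc13a4 below (3.07%). At 497.3 mg/kg the same pair lay above (5.71%) and Papss2 and Slc13a4 below (4.29%). At 994.6 mg/kg these 2 genes lay above (6.91%) and the other 2 below (7.12%), so 4 of 7 members had separate arrays at each of the upper 2 doses. Because of how the members were chosen, these counts cannot show that the group differs from other genes. The median change of the 7 members was 0.13, 0.11, 0.11, 0.07 and 0.05 from the lowest dose to the highest, beside 0.003, 0.013, 0.010, 0.007 and -0.007 over all genes, since members moved in both directions.

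Neighbouring doses were told apart for 0 members by limma in each of the 4 comparisons, where 0%, 0%, 0.00703% and 0.0211% of all genes were called from the lowest pair to the highest. At an unadjusted p under 0.05, 0, 1, 1 and 1 members passed, and 299, 343, 638 and 1082 of all genes. The members were Ugt2b1 between 124.5 and 248.6 mg/kg, Papss2 between 248.6 and 497.3 mg/kg with -0.28 ± 0.11, and Slc13a4 between 497.3 and 994.6 mg/kg.

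**Figure D3:**
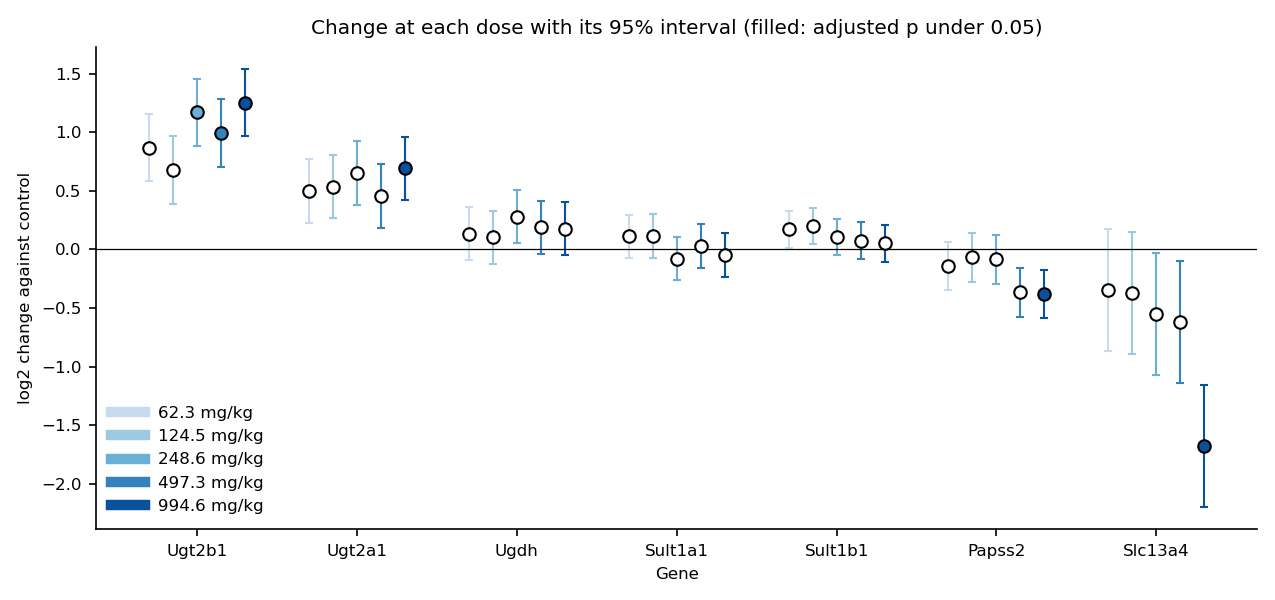
Log2 change from control (vertical axis) of the 7 genes (horizontal axis), with the 5 doses in mg/kg from left to right within a gene, bars for the 95% interval from limma and filled points for calls. The intervals of Ugt2b1 lie above 0 at each dose, and Slc13a4 reaches -1.68 at 994.6 mg/kg.

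Of the wider list of 23 glucuronosyltransferases, 8 had a probe set of their own, and 2 were called higher at 994.6 mg/kg, both of them members. The median change of the 8 was 0.22, beside -0.007 over all genes. That median includes the 2 members and the change of Ugt2b, which rested on 1 control array. The other measured genes, named to complete the list and not for their values, were Ugt2b10 at 0.23, Ugt2b15 at 0.20, Ugt2b35 at 0.14, Ugt8, which makes galactosylceramide, at -0.06, Ugt2b7 at -0.13, and Ugt2b. The 8 Ugt1a genes shared 2 probe sets and were not tested singly. Ugt2b read between 13.35 and 14.53 on 19 arrays but 5.36 in control replicate 1, so its change of 1.79 ± 1.34 (adjusted p = 0.523) at 994.6 mg/kg rested on that array. Without it the change was 0.03 ± 0.20, with a 95% interval from -0.39 to 0.45.

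Ugt2a1 and Ugt2b1 belong to 1 stretch of chromosome 14, which also holds Sult1b1. In the RefSeq order of protein-coding genes, Sult1b1 is the direct neighbour of Ugt2a1, and 10 genes, mostly of the Ugt2 family, lie between Ugt2a1 and Ugt2b1. Of the 13 genes from Sult1b1 to Ugt2b1, 7 were measured, and Ugt2a1 and Ugt2b1 were the 2 called at 994.6 mg/kg. Genes of this family have similar sequences, and how far probes of one read transcripts of another was not tested.

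Supply and use of UDP-glucuronate were covered by 10 of 11 listed genes, of which 0 were called higher and 2 lower at 994.6 mg/kg, with a median of -0.06. Both act in the making of vitamin C from glucuronate. Gulo, the last enzyme of that path, changed by -0.45 ± 0.12 (adjusted p = 0.0348), and its arrays read 12.11, 12.70 and 12.58 against 12.59 to 13.06 in control. Rgn, the lactonase before it, changed by -0.33 ± 0.08 (adjusted p = 0.017), and its arrays read 13.35, 13.34 and 13.30 against 13.46 to 13.74 in control. Rgn was also called lower at 497.3 mg/kg, by -0.34 ± 0.08 (adjusted p = 0.043). Without replicate 1 of 994.6 mg/kg, Gulo changed by -0.28 (adjusted p = 0.284) and Rgn by -0.34 (adjusted p = 0.0681), so neither was called.

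Of 17 listed sulfotransferases, 15 were measured, and 0 were called higher and 2 lower, with a median of -0.05. Sult1c2a, of the SULT1C family, changed by -0.90 ± 0.21 (adjusted p = 0.0183), and Tpst2, which sulfates tyrosines of secreted proteins, by -0.40 ± 0.11 (adjusted p = 0.0385). Without replicate 1 of 994.6 mg/kg these were -0.76 (adjusted p = 0.137) and -0.34 (adjusted p = 0.231). Among the 7 genes of PAPS supply and removal, Papss2 was the 1 called, and Bpnt1, which breaks down the used donor, changed by 0.37 ± 0.14 (adjusted p = 0.154).

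Sulfate transport was measured for 5 of 6 listed genes, and Slc13a4 was the 1 called at 994.6 mg/kg. Slc26a1, a sulfate exchanger of the hepatocyte membrane, changed by -0.39 ± 0.11 (adjusted p = 0.0517), and its slope of -0.06 ± 0.02 per dose step was called (adjusted p = 0.0396). All 8 genes of sulfate formation from cysteine were measured and 0 were called by limma. The one with the largest change among them was Sqor, which oxidizes sulfide, at 0.58 ± 0.24 (adjusted p = 0.194), with arrays at 10.27, 9.11 and 10.34 against 8.66 to 9.72 in control.

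The enzymes that remove glucuronate and sulfate had 7 of 7 measured and 1 called, Sts, the steroid sulfatase, at -0.63 ± 0.14 (adjusted p = 0.0116). Of 8 transporters of conjugates, 1 was called at 994.6 mg/kg, Abcc3, which exports glucuronides into blood. Its arrays lay between 6.36 and 6.92 in control and read 9.31, 9.48 and 9.89 at 994.6 mg/kg. It was called higher by 2.02 ± 0.24 at 248.6 mg/kg (adjusted p = 0.000525), 2.46 ± 0.24 at 497.3 mg/kg (adjusted p = 2.50e-05) and 2.86 ± 0.24 at 994.6 mg/kg (adjusted p = 2.15e-06). For another of these transporters, Slco1a1, the slope was called downward, at -0.04 ± 0.01 per dose step (adjusted p = 0.0448). Of 7 listed receptors and transcription factors of these pathways, 6 were measured and 1 was called, Nr1i2, the pregnane X receptor, at -0.51 ± 0.14 (adjusted p = 0.0482). Without replicate 1 of 994.6 mg/kg, Sts changed by -0.49 (adjusted p = 0.116) and Nr1i2 by -0.46 (adjusted p = 0.222), so neither was called, and Abcc3 was, at 2.99 (adjusted p = 1.45e-05).

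Over all 67 listed genes that were measured and are not members, the slope was called upward for 1 and downward for 8, beside 3.9% and 2.57% of all genes. At 994.6 mg/kg 1 was called higher and 6 lower, with a median of -0.05, beside the 2.5% and 1.96% of all genes given above. The lists too were chosen with earlier results known. Without replicate 1 of that dose, the listed genes called, members included, were Ugt2b1, Ugt2a1, Slc13a4 and Abcc3.

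**Figure D4:**
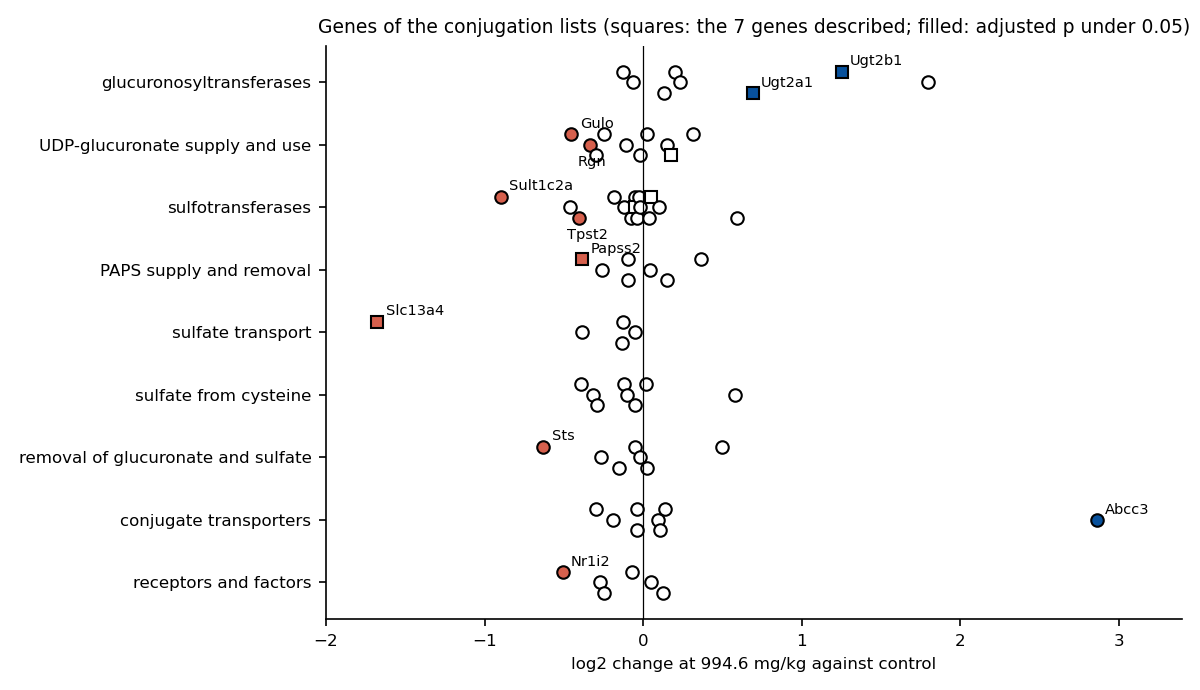
Log2 change at 994.6 mg/kg against control (horizontal axis) of the measured genes of 9 lists (vertical axis), where points are genes, squares are the 7 genes described and filled symbols are calls. The open point at 1.79 is Ugt2b, Abcc3 lies at 2.86 and Slc13a4 at -1.68, and most of the other genes lie near 0.

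Signs of RNA quality and tissue content differed between groups. The difference between the 3' and 5' GAPDH probe sets lay between 1.13 and 1.56 in control and between 0.612 and 1.11 in treated livers, except for replicate 2 of 124.5 mg/kg at 2.58. That same array was the lowest treated array in Ugt2b1, at 12.90. It was also the exception named above in Ugt2a1, at 6.20, and in Slc13a4, at 10.68, within the control range of both. With the GAPDH difference as a covariate, the changes at 994.6 mg/kg were 1.09 for Ugt2b1, 0.54 for Ugt2a1 and -1.47 for Slc13a4. These 3 were called, and Papss2, at -0.41, was not (adjusted p = 0.0572). The slope of Ugt2a1 was not called with this covariate either (adjusted p = 0.0839). Apart from replicate 2 of 124.5 mg/kg, the GAPDH ranges of control and treated livers did not overlap. The covariate therefore cannot separate RNA quality from treatment. Replicate 1 of 994.6 mg/kg lay apart on the first principal component, at 37.1 against -14.1 to 9.14 for the other arrays. The hepatocyte markers, 7 of 8 measured, summed to between 17.42 and 17.51 on every array and 0 were called by limma. The bile duct markers, 5 of 6 measured, summed to 9.52 to 9.87 in control, 9.64 to 10.10 at 62.3 mg/kg, 9.81 to 10.22 at 124.5 mg/kg and 9.83 to 10.27 at 248.6 mg/kg. They summed to 10.19 to 10.84 at 497.3 mg/kg and 10.18 to 10.34 at 994.6 mg/kg, where 1 was called higher. Of 5 stellate cell markers 1 was called higher at 994.6 mg/kg, and 0 were called of the endothelial, macrophage, neutrophil and lymphocyte markers. The part of these in the members' results was not tested.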

How the data were processed

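The authors deposited log2 expression values. The submitters' processing notes name RMA. Its version, and which arrays were normalized together, are not given in the sources used here. RMA equalizes the arrays' distributions, so changes are relative to the bulk of genes.

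Of 31099 probe sets, 57 were controls, 20826 had 1 gene symbol, 436 had more than 1 and 9780 had none in the annotation used. The RefSeq gene table gave current symbols, and 66 probe sets kept their older one. A gene took its probe set with the highest mean, which gave 14217 genes, with no filter on low values.

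One mean per group was fitted over 20 arrays with limma 3.58.1 in R 4.3.3 (14 residual and 4.77 prior degrees of freedom), and a separate fit gave the slope on dose step. P-values were Benjamini-Hochberg adjusted over all genes, with calls under 0.05. The code was checked on simulated data. The number of arrays limits precision.

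Members and lists were chosen with earlier results of these data known. The members are always named. From each list the text also names up to 4 called genes with the greatest change at 994.6 mg/kg, or 1 such gene if no non-member was called, and for Ugt2b1 and Slc13a4 the 3 genes with the nearest changes. Alternatives covered probe set summary, normalization, filter, covariates, samples fitted and single arrays left out.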

Additional observations from a re-analysis of the deposited data

Results flagged for a closer look

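Control replicate 1 was far from the other control arrays in Ugt2b. It read 5.36 while the other 19 arrays lay between 13.35 and 14.53, and its gap to the nearest control array was 0.944 of the control range. Control replicate 4 was the lowest control array in Rgn, at 13.46 against a highest of 13.74, with a gap of 0.835 of the range. Both gaps are above Dixon's critical value, which chance passes in about 1 of 20 groups, and the control arrays of 18 genes were tested.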

How the results depend on the processing

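Ugt2b1 at the 3 upper doses, Slc13a4 at 994.6 mg/kg and the slopes of both kept their calls in each setting run, and Ugt2a1 at 994.6 mg/kg in the 15 settings that tested it. Counts below are of all genes called, against 0, 1, 8, 104 and 635 for the 5 doses, 3 for 994.6 against 497.3 mg/kg and 920 for the slope, and against 0, 0, 1, 1, 4, 0 and 4 for members. The cause of a difference between settings was not tested.

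Averaging the probe sets of each gene gave 0 at 124.5 mg/kg and 1 for 994.6 against 497.3 mg/kg, and turned Papss2 at 248.6 mg/kg to 0.02214. With only genes of above-median mean tested, 1 gene, the member Ugt2b1, was called at 62.3 mg/kg and 6 for 994.6 against 497.3 mg/kg. A second quantile normalization gave 1000 at 994.6 mg/kg and 5 for 994.6 against 497.3 mg/kg, and turned the slope of Sult1b1 to -0.00176371. Trend and robust eBayes gave 5 for 994.6 against 497.3 mg/kg. With the GAPDH difference as a covariate, 4 were called at 248.6 mg/kg, and the slope of Sult1b1 was -0.000212287. Fits on only the groups compared gave 3 at 248.6 mg/kg and 235, with the members Ugt2b1 and Slc13a4, at 497.3 mg/kg. The slope without the 3 arrays of 994.6 mg/kg gave 182, with the members Ugt2b1 and Slc13a4.

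Deviations of arrays with the same replicate number had a median correlation of 0.0298, and 16 of 45 pairs were over 0.1. For different numbers the median was -0.0294, and 20 of 90 pairs were over 0.1. Whether the numbers pair the rats was not tested. The replicate block, which leaves out control replicates 4 and 5, gave 1 gene at 62.3 mg/kg, which was a member, 1 member at 124.5 mg/kg, 38 genes at 497.3 mg/kg and 310 at 994.6 mg/kg. The member at both lower doses was Ugt2b1. With the block, Ugt2a1's slope (0.096, adjusted p = 0.0879) and Papss2 at 994.6 mg/kg (-0.37, adjusted p = 0.101) were not called, and 3 members were called for the slope. It turned Sult1a1 at 497.3 mg/kg to -0.0202333 and the slope of Sult1b1 to -0.00340952. The same arrays with no block, chosen after seeing the data, gave the same 2 values, 1 gene at 62.3 mg/kg and 1 member each at 62.3 and 124.5 mg/kg, with 5, 38 and 250 genes at the upper doses and 514 for the slope.

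Leaving out 1 array at a time gave 0 to 1, 0 to 2, 3 to 9, 38 to 73 and 173 to 684 genes at the 5 doses, 592 to 1108 for the slope and 1 to 15 for 994.6 against 497.3 mg/kg. The 173 came without replicate 1 of 994.6 mg/kg, and 378 and 411 without control replicates 1 and 5. Members called were 0 to 1, 0 to 1, 1 to 2, 1 to 2 and 3 to 4 at the 5 doses and 0 to 1 for 994.6 against 497.3 mg/kg. Values that crossed 0 were Papss2 at 248.6 mg/kg (-0.19085 to 0.01355), Sult1a1 at 497.3 mg/kg (-0.04942 to 0.08518) and at 994.6 mg/kg (-0.13352 to 0.00193), and the slope of Sult1b1 (-0.00413153 to 0.00762123). For 994.6 against 497.3 mg/kg they were Ugdh (-0.09145 to 0.0691), Sult1a1 (-0.163767 to 0.00146667), Sult1b1 (-0.0490333 to 0.0313167) and Papss2 (-0.10275 to 0.04365).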
